A study of Mus musculus with 2 samples.

Results

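Fkbp5, Tsc22d3, Zbtb16, Per1, Sgk1, Greb1 and Padi1 are genes known to answer steroid hormones, and their transcripts were followed here through the cells of the mouse cervix. They were taken by symbol from the gene list of the deposited matrices, which gave 7 of 31053 genes, and their levels were set beside those of the steroid receptors of the same cells. Single-cell RNA sequencing had been run on 2 libraries, each made from the pooled cervices of 9 female C57BL6/129 mice. All mice were ovariectomised (OVX) at 7 to 8 weeks of age, which removes the main source of sex hormones, and recovered for 2 weeks. The control group then went untreated through the 15 days of the experiment. The progesterone (P4) group was injected under the skin with estradiol (E2), 100 µg per day in corn oil for 2 days, and then carried a 25 mg pellet with a release time of 21 days, estimated at 1 mg per day. The control had no oil injection and no pellet, so progesterone, estradiol priming, vehicle and pellet cannot be told apart in any difference below.

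The receptors for glucocorticoids (Nr3c1), mineralocorticoids (Nr3c2) and progesterone (Pgr) are transcription factors that bind closely related DNA elements, so several of these genes can be induced through more than a single receptor. Estrogen receptor alpha (Esr1) reads a different element. In the genital tract estradiol raises the amount of progesterone receptor, and progesterone then restrains many estradiol-driven genes of the epithelium. Fkbp5 encodes FKBP51, a co-chaperone in the Hsp90 complex that lowers the hormone affinity of steroid receptors. Tsc22d3 encodes GILZ, a leucine zipper protein that mediates anti-inflammatory actions of glucocorticoids. Zbtb16 encodes the zinc finger repressor PLZF, Per1 a repressor of the circadian clock, and Sgk1 a kinase that keeps epithelial sodium channels at the cell surface. Greb1 is an estradiol-induced gene whose protein binds the estrogen receptor, and Padi1 is an enzyme that converts arginine to citrulline in proteins such as keratins.

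The control library held 5368 cell barcodes and 21658684 UMIs (unique molecular identifiers, 1 per captured transcript), and the progesterone library 10853 barcodes and 44811069 UMIs. After filtering, 4579 and 8541 cells were analysed, with medians of 3733 and 4151 UMIs. The libraries shared 19 barcodes, 12 of them among the analysed cells. Levels are given as CPM, the UMIs of a gene for every 1000000 UMIs of the class. Cells were clustered and named from markers, so each name below stands for cells like that type. Luminal cells (229 control, 1944 progesterone) had UMIs of 8 of 8 luminal markers, summing to 11782 and 7078 CPM. Squamous cells (2613 and 4061) were split into basal (1290 and 3029) and suprabasal (1323 and 1032) cells. Of all analysed cells, 23.0% and 15.4% had no name. With 1 library per group there is no test between groups, and every interval is a 95% interval for counting error only, which leaves out the variation between mice.

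A gene was called higher or lower where the ratio of progesterone to control CPM was past 1.5-fold and its counting interval left out 1, among genes with at least 20 UMIs. This rule describes these libraries and is not a test of the treatment.

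The promoter windows of RefSeq (GRCm38.p6, 250 bases before to 50 bases after a start) were read for letters tied to these receptors, since Sgk1, Per1 and Fkbp5 are known for hormone or clock control. There were 15 windows for 6 of the 7 genes, and none for Zbtb16. The full glucocorticoid response palindrome, AGAACA and TGTTCT with any 3 bases between, reads the same on both strands and was in 3 of 32851 windows (0.00913%). Of the 6 genes with a window only Sgk1 had it, beginning 189 bases before the start, with capitals marking the palindrome, at chr10:21993671-21993745 on the plus strand.
Sgk1 palindrome: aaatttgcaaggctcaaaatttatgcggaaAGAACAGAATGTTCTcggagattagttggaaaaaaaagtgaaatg
The E-box CACGTG, the letters read by the clock proteins, was in 7.15% of all windows and in those of Fkbp5, Per1 and Sgk1, and is shown in capitals for Per1 (chr11:69098753-69098818, plus strand) and Fkbp5 (chr17:28486283-28486348, minus strand).
Per1 E-box: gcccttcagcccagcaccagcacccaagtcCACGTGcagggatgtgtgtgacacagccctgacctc
Fkbp5 E-box: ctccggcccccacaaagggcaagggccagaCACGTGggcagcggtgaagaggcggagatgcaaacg
The shorter core, GNACA and TGTNC with any 3 bases between, overlaps the palindrome. It was in 0.475% of windows and again in Sgk1 alone of the 6 genes with a window. The estrogen response palindrome, GGTCA and TGACC with any 3 bases between, was in 0.07% of windows and in none of these 15. These matches are letters in a short window and not measured binding sites.

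Squamous cells are the layered lining of the outer cervix. Of the 7 genes 6 were called higher in the progesterone library, where 21.1% of 12613 genes were, and none was called lower, where 12.5% were. Zbtb16, 1 of these 6, had no control UMI and reached 20 UMIs through the progesterone library alone, so it could not be called lower. The 7 genes were chosen with earlier results of these data known, so these counts are descriptions. The median log2 ratio of the 7 genes was 1.06, against 0.12 for all genes tested. Padi1 was the gene left out, at 57.7 and 81.5 CPM with a ratio of 1.41 (interval 1.30 to 1.54). In basal cells 5 of 7 were called higher (17.1% of genes, with 15.8% lower) and in suprabasal cells 6 of 6 tested (20.3% of genes, with 9.92% lower). Zbtb16 was again 1 of the genes called in basal cells, from 0 and 29 UMIs, and was the gene not tested in suprabasal cells, with 6 UMIs.

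Tsc22d3 had 83 UMIs in control and 520 in progesterone squamous cells, or 6.03 and 24.1 CPM, a ratio of 3.99 (3.16 to 5.10). The suprabasal values were 2.46 and 17.3 CPM, 7.03-fold higher (4.32 to 12.1). The basal values were 10.6 and 27.3 CPM, 2.58-fold higher (1.98 to 3.42). The intervals of these ratios did not overlap, so the pooled gap between the libraries was larger above the basal layer than in it. Each layer held different clusters in the 2 libraries, as set out below. In the control, Tsc22d3 was lower in suprabasal than in basal cells, and in the progesterone library the same order held with a smaller gap.

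Fkbp5 was read at low levels, with 42 and 139 UMIs, or 3.05 and 6.43 CPM, in squamous cells. That is a ratio of 2.11 (1.48 to 3.05). Basal cells had 4.30 and 6.94 CPM and suprabasal cells 2.07 and 5.39 CPM. The higher level was in the progesterone library in both layers, and the intervals of the basal and suprabasal ratios, 1.61 (1.04 to 2.59) and 2.60 (1.42 to 5.0), overlapped.

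Zbtb16 had no UMI among 13770670 in control squamous cells and 35 among 21614103 in progesterone ones. Against a floor of 3 counts in the control this was 7.43-fold higher, and the counting interval of the ratio began at 5.73. Basal cells gave 29 of the 35 UMIs, at 1.99 CPM and 4.01-fold above the control floor, with an interval from 3.06. After thinning each cell to 2000 UMIs, 0.492% of progesterone basal cells (exact interval 0.269% to 0.824%, of 2845 cells) had a UMI of Zbtb16, and 0.176% to 0.562% did over 20 further draws. No control basal cell did, of 933, which allows a share of up to 0.322%, and the exact interval reaches 0.395%, so the intervals of the thinned shares overlap. Without thinning the progesterone share was 0.924% (0.615% to 1.33%, of 3029 cells) and the control 0 of 1290 cells, which allows up to 0.233% (exact interval up to 0.286%), at median depths of 4486 and 4015 UMIs.

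Sgk1 was at 38.9 CPM in control and 70.1 CPM in progesterone squamous cells, a ratio of 1.80 (1.63 to 1.99). Basal cells had 26.5 and 62.3 CPM, 2.35-fold higher (1.99 to 2.80), and suprabasal cells 48.7 and 86.3 CPM, 1.77-fold higher (1.56 to 2.02). In both libraries the suprabasal level was the higher of the layers.

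Per1 had 32 and 87 UMIs, or 2.32 and 4.03 CPM, in squamous cells, a ratio of 1.73 (1.14 to 2.69). The suprabasal values, 1.81 and 4.54 CPM, were apart by 2.50-fold (1.30 to 5.08). The basal values, 2.98 and 3.78 CPM, had a ratio of 1.27 with an interval of 0.734 to 2.30 and were not called.

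Greb1 was at 16.3 CPM in control squamous cells (224 UMIs) and 37.5 CPM in progesterone ones (810 UMIs), a ratio of 2.30 (1.98 to 2.68). Basal cells had 22.5 and 38.0 CPM and suprabasal cells 11.4 and 36.4 CPM. Pooled over each layer, the intervals of the basal ratio, 1.69 (1.4 to 2.05), and the suprabasal ratio, 3.20 (2.50 to 4.12), did not overlap. In the control the basal level was above the suprabasal one, and in the progesterone library the layers had overlapping intervals. Padi1 was at 56.9 and 72.2 CPM in basal cells, not called, and at 58.4 and 100.7 CPM in suprabasal cells, 1.72-fold higher (1.53 to 1.94).

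**Figure D1:**
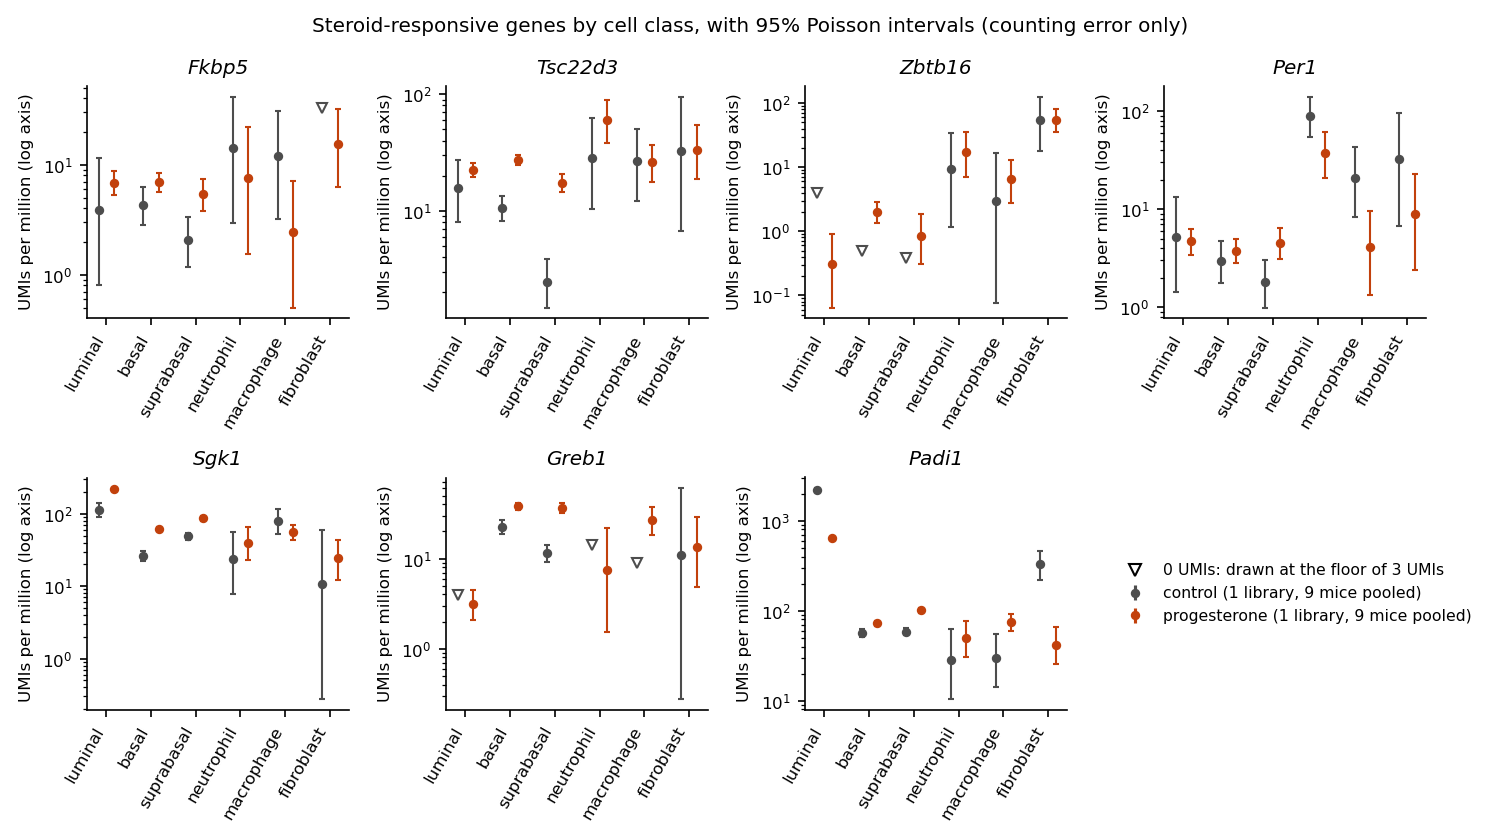
Level of each gene (CPM, log axis) in 6 classes of the control (grey) and progesterone (orange) libraries; points are the pooled cells of a class, bars are 95% Poisson intervals, and open triangles mark 0 UMIs at the floor of 3 counts. Tsc22d3, Sgk1 and Greb1 sat higher with progesterone in basal and suprabasal cells, and Padi1 in luminal cells went from 2200.45 to 643 CPM.

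Luminal cells line the canal and made a different picture. Of 6 genes tested 1, Sgk1, was called higher (11.8% of 11162 genes were) and 1, Padi1, lower (10.3% of genes). The luminal classes of the libraries were largely different clusters: 91.7% of the control cells were in cluster 14, led by Psca, Tff1 and Agr2, and the progesterone cells were in cluster 18 (49.7%), led by Tff1, Agr2 and Muc5b, and cluster 20 (47.2%), led by Clca1. The control luminal cells also held 769387 UMIs against 9609140, which widens their intervals. Krt5, a keratin of squamous cells, was at 2767 CPM in the control luminal cells and 662 CPM in the progesterone ones, and the part of squamous RNA in the luminal values was not tested.

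Sgk1 had 87 and 2087 UMIs in luminal cells, or 113 and 217 CPM, a ratio of 1.92 (1.55 to 2.41). No other class had a higher value in either library, although in the control the interval (90.6 to 139) overlapped that of macrophages, 80.2 CPM (52.9 to 117). Within the progesterone library, cluster 20 had 323.5 CPM (307 to 341) and cluster 18 had 134 CPM (124 to 145), which is near the 114 CPM (90.2 to 141.5) of the control cluster 14. Cluster 20 gave 1373 of the 2087 progesterone UMIs, so the higher luminal level of Sgk1 was read mainly in the Clca1-rich cells. The 20 progesterone cells that fell in cluster 14 had 413 CPM (284 to 580). After thinning to 2000 UMIs, 33.9% of progesterone luminal cells (31.6% to 36.2%, of 1676) and 22.7% of control ones (16.2% to 30.2%, of 150) had a UMI of Sgk1. Over 20 further draws the shares were 31.9% to 34.5% and 18% to 24.7%. Without thinning the shares were 52.8% and 24.9%. Thinned basal cells had a lower share, 10.7% and 5.89%, so the luminal share stood above the basal one in each library.

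Padi1 had 1693 UMIs in 229 control luminal cells and 6174 in 1944 progesterone ones. Its level was 2200.45 CPM in the control and 643 CPM with progesterone, 3.42-fold lower (3.24 to 3.61). The share of thinned luminal cells with a UMI was 77.3% (69.8% to 83.8%) and 64.3% (61.9% to 66.6%), so the gene was read in most cells of both libraries. Without thinning the shares ran the other way, 65.9% and 81.0%, at median depths of 2616 and 4809.5 UMIs, and no order is read from them. Thinned basal cells had 10.6% and 12.6%. Clusters 18 and 20 had 562 and 780 CPM in the progesterone library. The few control cells of those clusters, 6 and 13, had 1160 CPM (743 to 1725) and 2478 CPM (2040 to 2982), and the 20 progesterone cells of cluster 14 had 613 CPM (453 to 810) against 2213 CPM in the control. In each of these 3 clusters Padi1 was thus lower with progesterone, on few cells of 1 library. The unnamed clusters 9 and 19, mostly of control cells, which were led by Sprr2d and Psca and scored best for luminal markers but had little Krt8, had 333 and 778 CPM of Padi1 in the control. With these clusters counted as luminal, an alternative added after seeing the data, the log2 ratio of Padi1 went from -1.78 to -0.16 and it was no longer called. The lower Padi1 of the pooled class thus rests on which control cells are named luminal. The log2 ratio of Tsc22d3 then went from 0.46 to 2.08, while the median log2 ratio of all luminal genes tested went from 0.06 to 0.30.

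Tsc22d3 had 12 control UMIs in luminal cells (15.6 CPM) and 214 with progesterone (22.3 CPM), a ratio of 1.43 whose interval of 0.801 to 2.81 holds both no difference and that of the basal cells. Fkbp5 had 3 and 66 UMIs, or 3.90 and 6.87 CPM, with a ratio of 1.76 (0.577 to 8.76). Per1 had 4 and 45 UMIs, at 5.20 and 4.68 CPM. Differences of these 3 genes in luminal cells were not detectable at this depth. Greb1 had no UMI in control luminal cells and 30 in progesterone ones, and its 3.12 CPM (2.11 to 4.46) lies under the control floor of 3.90 CPM, so no fold is given. Within the progesterone library Greb1 was far lower in luminal than in basal cells (38.0 CPM), with intervals far apart. Zbtb16 had 0 and 3 UMIs.

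A small progesterone cluster stood apart among the luminal cells. Cluster 24 held 39 cells, none of them control, and was led by Prap1, Serpina1e and Sult1d1. Its levels were 55.9 CPM of Tsc22d3 (34.1 to 86.3), 28.0 CPM of Greb1 (13.4 to 51.4) and 16.8 CPM of Fkbp5 (6.15 to 36.5). Clusters 18 and 20 had 16.4 and 25.4 CPM of Tsc22d3 and 2.44 and 1.89 CPM of Greb1, both below the intervals of cluster 24. Its Sgk1, at 53.1 CPM (32.0 to 82.9), and its Padi1, at 129 CPM (94.1 to 171.5), were lower than in clusters 18 and 20. The numbers behind these values are 20, 10, 6, 19 and 46 UMIs.

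The squamous classes were also made of different clusters, which bears on every pooled ratio above and below. Of the control basal cells 39.5% were in cluster 2 (led by Sprr2a3, Cxcl14 and Krt16) and 25.2% in cluster 7 (Apoe and Igfbp5), whereas cluster 7 held 68.1% of the progesterone basal cells. Of the control suprabasal cells 60.4% were in cluster 1 (Sprr2d and Ifitm1) and 29.8% in cluster 13 (Krt16 and Krt6b), and 94.8% of the progesterone ones were in cluster 0 (Krt10 and Krtdap). The 7 genes took no part in the clustering. Clusters 0, 6, 7 and 11 had at least 50 cells of each library, and a ratio within them, combined over the 4 clusters, was added after the data had been seen.

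Within these clusters Greb1 and Sgk1 kept their pooled direction, and the gap of Tsc22d3 was smaller. The combined ratio was 1.48 (1.08 to 2.03) for Tsc22d3, against 3.99 pooled. It was 1.85 (1.39 to 2.45) for Greb1 and 1.93 (1.60 to 2.33) for Sgk1. Fkbp5 had 2.16 (1.14 to 4.09) from 15 control UMIs, Per1 1.36 (0.645 to 2.86), and Padi1 0.946 (0.825 to 1.08). The combined ratio averages over the clusters, and for Padi1 and Sgk1 the clusters differed. Padi1 had ratios of 1.60 (1.14 to 2.30) in cluster 0 and 1.60 (1.18 to 2.18) in cluster 11. In cluster 7 it had 0.489 (0.398 to 0.605), and in cluster 6 it had 0.999 (0.692 to 1.49). Sgk1 ran from 1.03 (0.732 to 1.48) in cluster 7 to 4.96 (3.24 to 7.80) in cluster 11. By the same rule on the combined ratio 3 of 6 tested genes were called higher, Fkbp5, Sgk1 and Greb1, where 7.98% of 12079 genes were. Zbtb16 had 0 and 35 UMIs in these clusters and could not be fitted. The ratio of Fkbp5 within clusters was 1.99 (1.07 to 3.71) with the finer clustering. Its interval held 1 in the other settings, at 1.57 (0.894 to 2.75) without doublet removal and 2.04 (0.502 to 8.32), from 2 control UMIs, under the stricter cell filter.

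In cluster 7, Tsc22d3 was at 32.5 CPM in the control (22 UMIs) and 32.2 CPM in the progesterone library (301 UMIs), a ratio of 0.992 (0.643 to 1.61). Greb1 in the same cells was at 14.8 and 40.1 CPM, 2.71-fold higher (1.46 to 5.70). Sgk1 was at 53.2 and 54.6 CPM, and Padi1 at 157 and 76.6 CPM, 2.05-fold lower (1.65 to 2.51). Greb1 was thus the only one of 7 genes tested called higher in cluster 7 (2.91% of 10886 genes were) and Padi1 the only one lower (8.76%). The control cells of cluster 7 were shallow, with a median of 1473 UMIs against 4286.5, and the part of depth in these values was not tested. Control levels of Tsc22d3 were low in the clusters that were mostly control, with 7.89 CPM in cluster 2, 0.743 CPM (3 UMIs) in cluster 1 and 4.16 CPM in cluster 13, and also in the shared clusters 0 (5.36 CPM) and 11 (6.25 CPM).

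Cluster 6, of basal cells, had 19.1 and 36.9 CPM of Greb1, a ratio of 1.93 (1.02 to 4.12), and Greb1 was the only gene called higher of 4 tested (3.39% of genes, with 9.23% lower). In cluster 0, of suprabasal cells, 3 of 6 were called higher (7.11% of genes, with 7.67% lower). These were Tsc22d3 at 5.36 and 18.1 CPM, 3.38-fold (1.13 to 16.6) from 3 control UMIs, Sgk1 at 33.9 and 84.7 CPM, 2.50-fold (1.58 to 4.18), and Padi1 at 64.3 and 102.7 CPM, 1.60-fold (1.14 to 2.30). Greb1 was not called in cluster 0, at 21.4 and 37.7 CPM, a ratio of 1.76 (0.990 to 3.45). That interval overlapped those of the basal clusters 6 and 7, so the larger suprabasal ratio of Greb1 in the pooled cells was not seen between these clusters. In cluster 11, of cycling basal cells led by Hist1h1b and Top2a, 3 of 5 were called higher (13.2% of genes, with 11.4% lower). Sgk1 was at 15.1 and 74.8 CPM there, 4.96-fold (3.24 to 7.80), and Tsc22d3 at 6.25 and 15.9 CPM, 2.55-fold (1.19 to 5.72). Padi1 was the other gene called, at 44.2 and 70.9 CPM, 1.60-fold (1.18 to 2.18). In cluster 6 Tsc22d3 was not called, with a ratio of 1.41 (0.649 to 3.63). The cluster 0 interval of Tsc22d3 overlapped those of the basal clusters 6, 7 and 11. Its larger suprabasal ratio in the pooled cells was thus not resolved between these clusters. In cluster 11 Greb1 was at 20.3 and 27.1 CPM, a ratio of 1.33 (0.817 to 2.17). Median depths in cluster 11 were 8228 and 8485 UMIs, the closest of the 4.

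The stricter cell filter left 2 clusters for this comparison, and with it the log2 ratio of Tsc22d3 within clusters was -0.45, from 24 control UMIs, and that of Sgk1 -0.19. Greb1 was at 1.56 from 8 control UMIs, a ratio of 2.95 with a wide interval (1.47 to 5.93). The ratio of Greb1 within clusters was above 1 in each of the 4 settings tried.

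**Figure D2:**
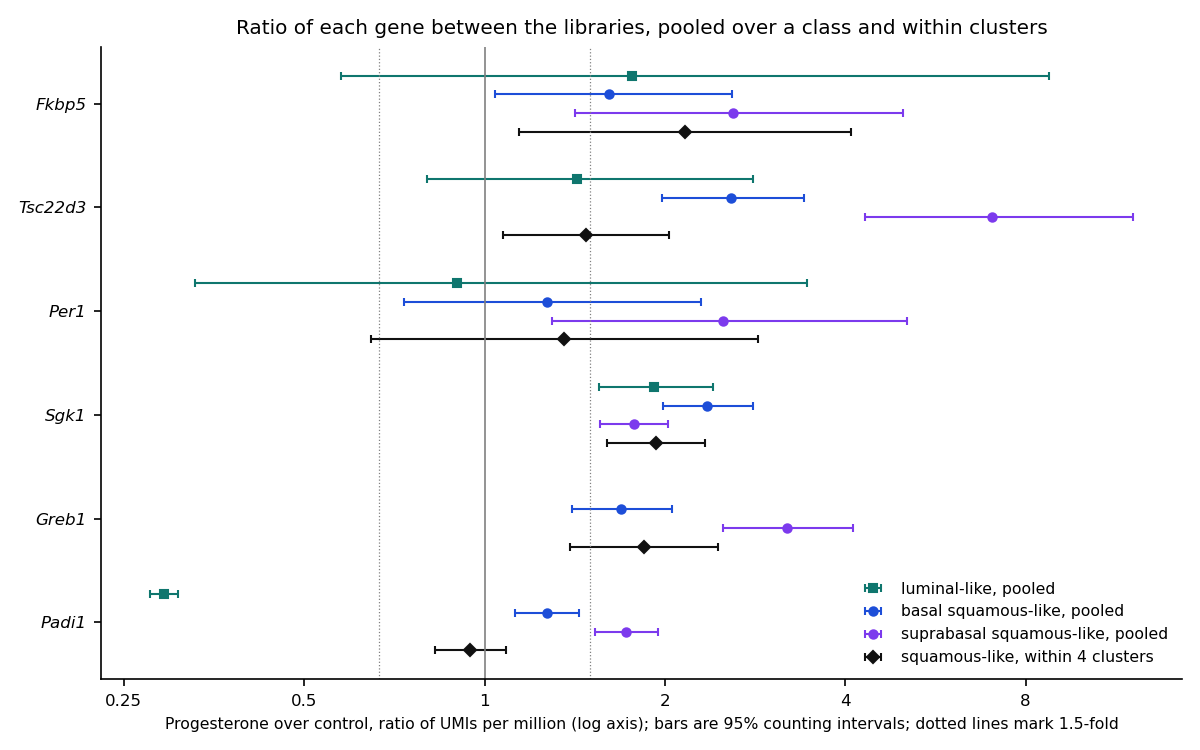
Ratio of progesterone to control (log axis) for 6 genes pooled over luminal, basal and suprabasal cells and within 4 squamous clusters; bars are 95% counting intervals and dotted lines mark 1.5-fold. For Tsc22d3 the ratio of 7.03 in suprabasal cells stands beside 1.48 within clusters, and the Sgk1 ratios lie between 1.77 and 2.35.

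**Figure D3:**
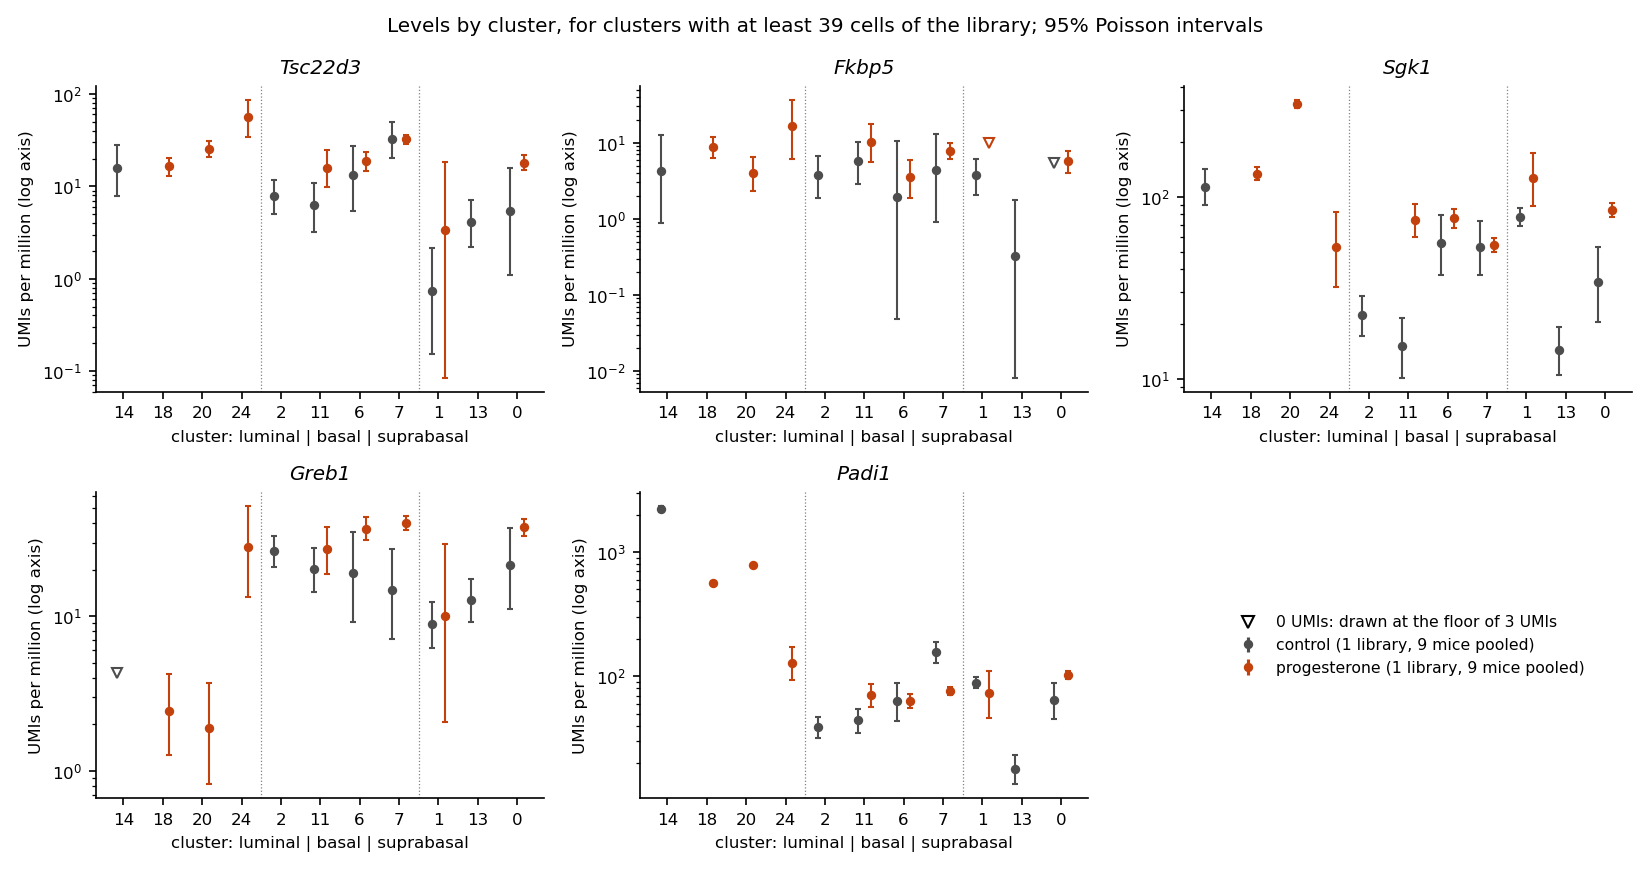
Levels of 5 genes (CPM, log axis) in the luminal, basal and suprabasal clusters, for clusters with at least 39 cells of a library; bars are 95% Poisson intervals and open triangles mark 0 UMIs at the floor of 3 counts. Tsc22d3 is level between the libraries in cluster 7, Greb1 is higher with progesterone there, and Sgk1 is highest in cluster 20.

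Cells outside the epithelium gave few UMIs. Zbtb16 was highest in fibroblasts, with 5 UMIs in 79 control cells (54.4 CPM, 17.7 to 127) and 25 in 133 progesterone cells (55.3 CPM, 35.8 to 81.7). The ratio was 1.02 (0.382 to 3.40), so no difference was detectable there. Of the smooth muscle markers, 5 of 6 and 6 of 6 had UMIs in this class, summing to 1676 and 4502 CPM, with Actg2 at 0 in the control. Padi1 in fibroblasts, 327 and 42.0 CPM, met the rule for lower (7.14% of genes), but 29 of its 30 control UMIs were in 1 cell, and without it the control was at 11.6 CPM.

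Per1 was the gene called in neutrophils, at 90.1 CPM in the control (19 UMIs) and 37.5 CPM in the progesterone library (15 UMIs), 2.40-fold lower (1.16 to 5.08). Of 4 genes tested in neutrophils it was the only one called (7.51% of genes were lower and 8.72% higher). These were shallow cells, with medians of 582 and 776.5 UMIs. Tsc22d3 had 6 and 24 UMIs there, or 28.4 and 60.0 CPM, with a ratio of 2.11 (0.841 to 6.31).

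Macrophages had Greb1 at 0 of 336477 control UMIs and 26.8 CPM in the progesterone library (33 UMIs). That was 3.01-fold above the control floor of 3 counts, with a counting interval from 2.31. Padi1 was the other gene called, at 29.7 and 74.8 CPM. These were 2 of 4 genes tested, Greb1 through progesterone UMIs alone (10.8% of genes were higher and 20% lower). Squamous keratin RNA moved with them: the 8 basal markers summed to 1789 and 8919 CPM in these cells. With the finer clustering, whose macrophages had 205 and 131 CPM of Krt5, Greb1 was at 0 UMIs in both libraries (167 and 117 cells) and Padi1 at 26.9 and 21.8 CPM. Endothelial (44 and 62 cells) and erythrocyte cells (38 and 138) were too few in the control for a comparison. In them Tsc22d3 had 12 UMIs in progesterone endothelium, at 83.6 CPM (43.2 to 146), its highest value of any class.

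The receptors of the same cells came next. Pgr was at 46.8 CPM in control and 97.9 CPM in progesterone luminal cells, 2.09-fold higher (1.5 to 3.01). In suprabasal cells it was at 43.6 and 75.3 CPM, 1.73-fold higher (1.5 to 1.98), and in basal cells at 35.2 and 45.5 CPM, a ratio of 1.29 (1.10 to 1.51) that was not called. Within the progesterone library the order was luminal, suprabasal, basal with intervals apart. Greb1 did not follow that order in the same library, with 3.12 CPM in luminal, 36.4 CPM in suprabasal and 38.0 CPM in basal cells. Neutrophils had no UMI of Pgr in either library, at floors of 14.2 and 7.5 CPM.

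Nr3c1, the glucocorticoid receptor, ran in another order. It was at 26.0 and 42.3 CPM in luminal cells, 1.63-fold higher (1.04 to 2.69), at 53.6 and 88.6 CPM in basal cells, 1.65-fold higher (1.46 to 1.87), and at 24.5 and 31.2 CPM in suprabasal cells, not called. Neutrophils had 152 and 183 CPM and fibroblasts 131 and 128 CPM. Within the progesterone epithelium Nr3c1 and Tsc22d3 were both highest in basal cells, although the Tsc22d3 intervals of basal (24.7 to 30.2) and luminal cells (19.4 to 25.5) overlapped.

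Among the 3 epithelial classes Esr1 was called in suprabasal cells, at 69.3 and 141.5 CPM, 2.04-fold higher (1.84 to 2.27), and was at 168 and 203 CPM in luminal and 125 and 174 CPM in basal cells. Nr3c2 was low, at 6.50 and 9.26 CPM in luminal and 0.331 and 2.47 CPM in basal cells, from 2 control UMIs in the latter, a ratio of 7.48 (1.92 to 64.1). Of the 8 receptor genes compared, 2 of 6 tested were called higher in luminal cells, 2 of 6 in basal and 3 of 5 in suprabasal cells. Over all genes 11.8%, 17.1% and 20.3% were higher in these classes. No receptor gene was called lower, where 10.3%, 15.8% and 9.92% of all genes were. Of the rest, Pgrmc1 was called in suprabasal cells, 1.51-fold (1.29 to 1.77), Pgrmc2 was called in none of the 3 classes, and Esr2 and Gper1 had too few UMIs.

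Of Pgr, Esr1 and Nr3c1, Pgr was past 1.5-fold within the clusters that both libraries shared. Over clusters 0, 6, 7 and 11 the combined ratio was 1.88 (1.46 to 2.41) for Pgr. It was 1.21 (1.09 to 1.35) for Esr1 and 1.11 (0.95 to 1.29) for Nr3c1. In cluster 7, where Tsc22d3 was level, Pgr was at 26.6 and 48.7 CPM and Nr3c1 at 121 and 101 CPM. In cluster 0, Pgr was at 17.9 and 76.4 CPM, 4.28-fold higher (2.31 to 8.97). In cluster 11, where Sgk1 had its largest ratio, Pgr was at 35.4 and 30.3 CPM, a ratio of 0.855 (0.559 to 1.29), and Nr3c1 at 42.2 and 72.5 CPM, 1.72-fold higher (1.26 to 2.35).

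**Figure D4:**
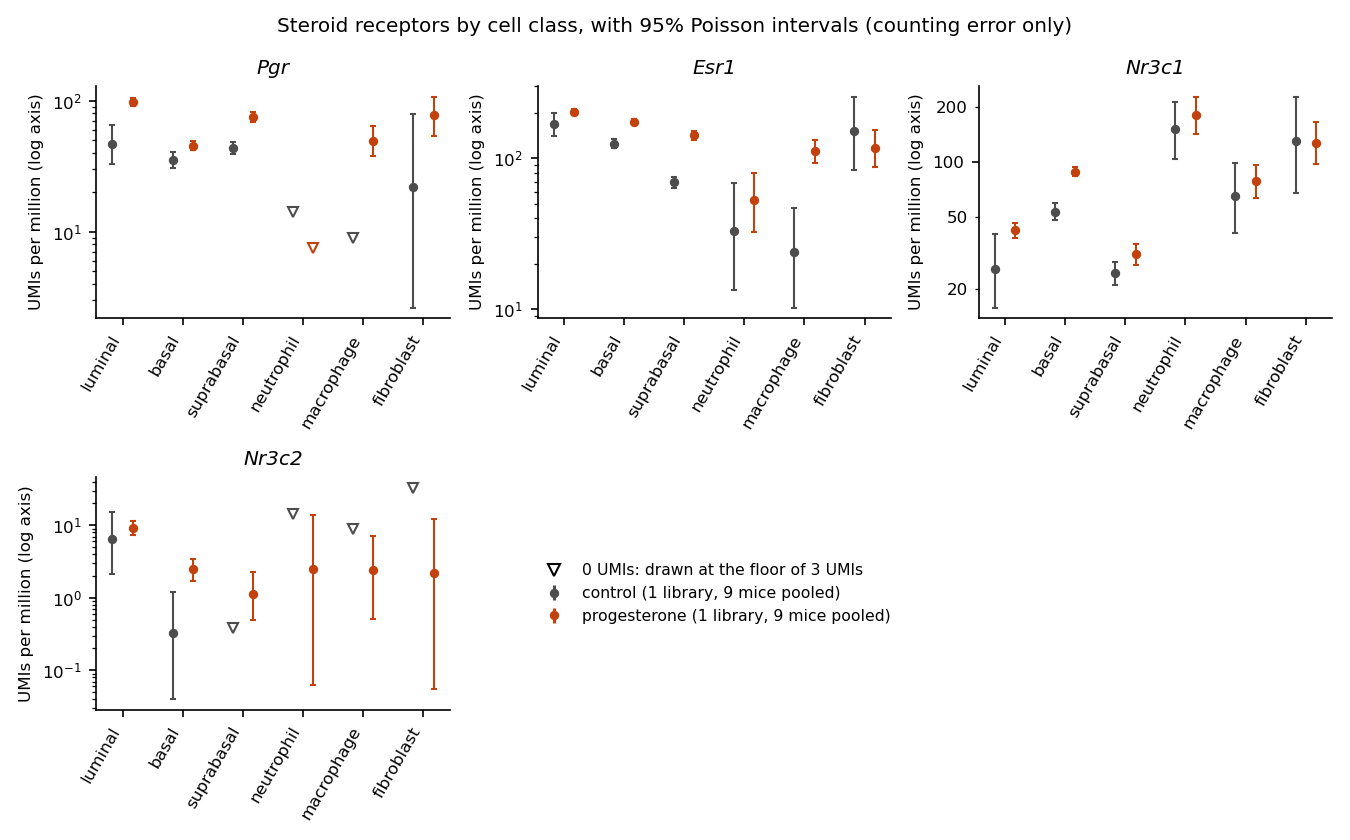
Levels of 4 steroid receptors (CPM, log axis) in 6 classes of the control (grey) and progesterone (orange) libraries; bars are 95% Poisson intervals and open triangles mark 0 UMIs at the floor of 3 counts. Pgr is highest in progesterone luminal cells (97.9 CPM), and among the 3 epithelial classes Nr3c1 is highest in basal cells of either library.

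Cells with and without a UMI of Pgr, Esr1 or Nr3c1 were compared within luminal, basal and suprabasal cells of each library after thinning to 2000 UMIs. Thinning keeps a random part of each cell's UMIs, so it was drawn 20 more times. Of 112 splits of a gene by a receptor, 93 had overlapping counting intervals in every further draw, and a draw had between 1 and 6 splits apart, with a median of 2. Padi1 in progesterone luminal cells was apart in 13 of 20 draws, with median shares of 71.3% in cells with a Pgr UMI (64.3% to 74.2% over the draws) and 62.1% in cells without (60.4% to 65.1%). Greb1 in progesterone basal cells was apart in 10 of 20 draws, with median shares of 11.8% (10.2% to 15.5%) and 6.83% (5.79% to 7.48%). Sgk1 in progesterone suprabasal cells was apart in 3 of 20 draws, at median shares of 19.8% and 15.0%. These were the splits of Padi1, Greb1 and Sgk1 most often apart, and no split of any gene was apart in all draws. Tsc22d3 split by Pgr in progesterone basal cells was also apart in 3 of 20 draws, at median shares of 7.12% and 5.29%. Padi1 split by Pgr in progesterone suprabasal cells was apart in 4 of 20 draws (21.5% and 16.1%). Split by Esr1 in progesterone luminal cells, Padi1 was apart in 3 of 20 (65.4% and 62.6%). The Greb1 share of basal cells was higher with a Pgr UMI than without in each of the 20 draws, and for it and the others the counting intervals were apart in some draws and not in others. A cell with no receptor UMI at this depth may still hold the transcript, so overlapping shares do not show that the genes and receptors are unrelated.

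**Figure D5:**
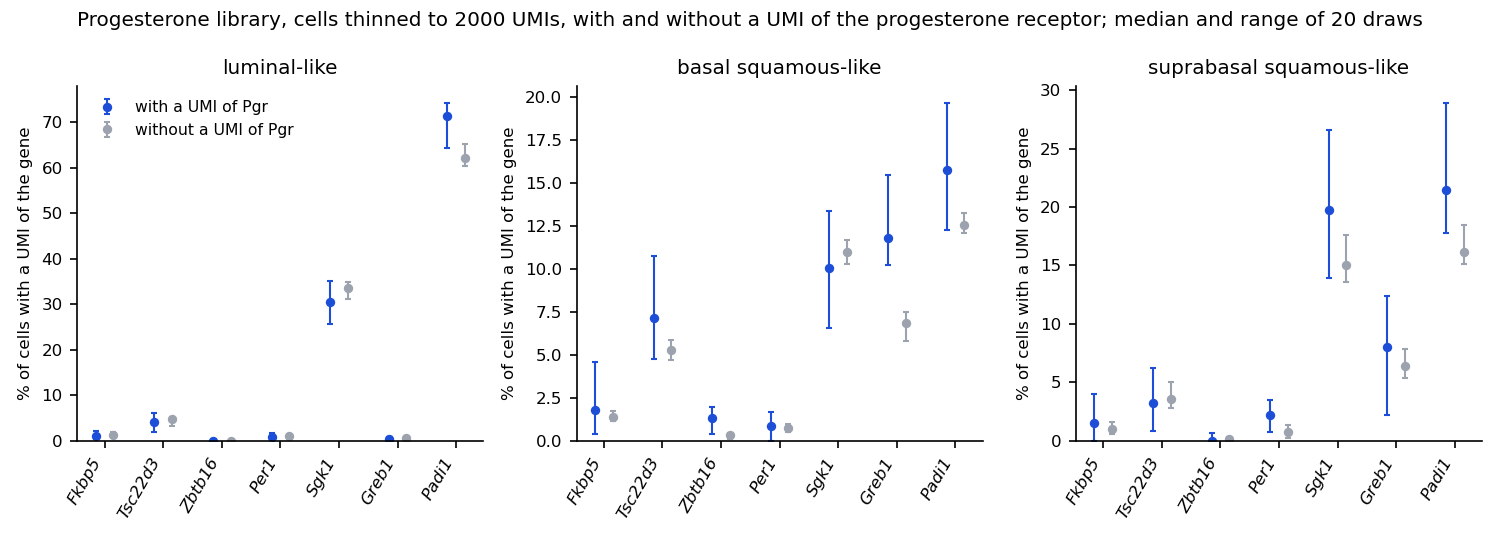
Share of progesterone-library cells with a UMI of each gene (percent), in cells with (blue) and without (grey) a UMI of Pgr, after thinning to 2000 UMIs; points are medians and bars the lowest and highest of 20 draws, not counting error. For Greb1 in basal cells (11.8% and 6.83%) the ranges are apart, and those of Sgk1 in suprabasal cells overlap.

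Across the 14 pairs of class and library with at least 50 cells, the genes whose log2 levels ran closest to Tsc22d3 were Txnip (Pearson r = 0.89), Crebrf (0.88), Irf1 (0.85), Xiap (0.84) and B2m (0.84), of 10295 genes compared. Greb1 ran closest to Slc20a2 (0.92), Cacna2d3 (0.90), Lrig3 (0.90), Fjx1 (0.89) and Heph (0.88). Fkbp5 ran closest to Hs1bp3 (0.87), Cdyl (0.85), Atp13a3 (0.78), Bmt2 (0.78) and Sp2 (0.78), all of which, like Fkbp5, were at 0 UMIs in control fibroblasts. The points share libraries, depths and neighbouring classes, so these are descriptions with no test.

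Of 24 other genes known to answer glucocorticoids, 3 of 17 tested were called higher and 4 lower in luminal cells, 7 and 5 of 21 in basal cells, and 6 and 3 of 18 in suprabasal cells. Over all genes tested 11.8% were higher and 10.3% lower in luminal cells, 17.1% and 15.8% in basal cells, and 20.3% and 9.92% in suprabasal cells, so several of these counts, and of those of the lists that follow, are near the shares of all genes. The median log2 ratios of the glucocorticoid list were 0.22, 0.55 and 0.44 in these classes, against 0.06, 0.03 and 0.17 for all genes. In the shared squamous clusters 0, 6, 7 and 11 they were 0.51, -0.096, -0.25 and 0.35. For all genes they were -0.02, -0.17, -0.17 and 0.04 there. The basal median was thus not seen in clusters 6 and 7. Like Sgk1, glutamine synthetase (Glul) was higher in luminal and basal cells, at log2 ratios of 1.62 and 2.04. Klf9, a zinc finger factor, was higher in basal (1.33) and suprabasal cells (1.62), with Cdkn1c (1.55) in basal and Il1r2 (2.40) and Irs2 (1.64) in suprabasal cells. The metallothioneins Mt1 and Mt2 were lower in basal (-1.42 and -1.71) and suprabasal cells (-1.16 and -1.48) and were higher in luminal cells (1.21 and 1.18). The other lowest ratios were those of Ampd3 in basal cells (-1.19), Cebpd in suprabasal cells (-1.07), and Map3k6 (-3.05), Il1r2 (-1.30) and Ddit4 (-1.29) in luminal cells. Neutrophils had 1 of 10 higher, Cebpd (0.65), and 3 lower, Il1r2 (-0.72), Dusp1 (-0.73) and Nfkbia (-1.15), beside the lower Per1.

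Of 18 genes known to answer progesterone in the uterus, few were read: 1 of 6 tested was called higher in luminal cells, Msx1, at 1 and 119 UMIs, or 1.30 and 12.4 CPM, a ratio of 9.53 (1.68 to 379.5). Nr2f2 was higher in basal (0.75) and suprabasal cells (0.99) and Ptch1 in suprabasal cells (1.05), and Fst, the activin antagonist follistatin, was lower in both (-4.17 and -4.12, the latter from 28 and 1 UMIs with a ratio of 0.0391 and an interval of 0.000956 to 0.237). In fibroblasts 4 of 6 were called higher, where 4.92% of genes were: Hsd11b2, Hoxa11, Hoxa10 and Nr2f2. Of these Hsd11b2, the enzyme that inactivates glucocorticoids, had 0 and 94 UMIs, 6.37-fold above the control floor, and so was tested through the progesterone library alone. Of 14 estradiol-responsive genes, 6 of 12 tested were lower and 3 higher in luminal cells, with Sprr2f (-5.34), Lcn2 (-4.03) and Padi2 (-2.02) lowest and C3 (2.33), Ccnd1 (1.03) and Clu (0.71) highest. In basal cells 5 of 10 were lower, from Sprr2f (-4.62), Muc1 (-1.74), Lcn2 (-1.68) and Ltf (-1.63) to Wnt4 (-0.82), and Aqp5 (2.61) was higher, and in suprabasal cells 5 of 10 were lower and 3 higher, with Lcn2 (-3.70), Sprr2f (-3.49) and Ltf (-2.91) lowest and Ccnd1 (2.02), Aqp5 (1.77) and Padi4 (0.86) highest. The median log2 ratios of this list were -0.55 in luminal, -0.34 in basal and -1.03 in suprabasal cells. In the shared squamous clusters 0, 6, 7 and 11 they were 0.05, 0.16, -0.17 and -0.13. The suprabasal median was thus not seen in cluster 0, of suprabasal cells.

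Beside Per1, 8 of 14 clock genes were called higher in all squamous cells and 3 lower, where 21.1% and 12.5% of all genes were. In basal cells 5 of 13 were higher, Npas2, Cry1 (1.4), Arntl (1.39), Per2 (1.26) and Per3 (0.96), and Bhlhe41 (-0.92) was lower. Suprabasal cells had 5 of 12 higher, with Per2 (2.25), Per3 (1.12) and Arntl (0.82) among them, and Bhlhe40 (-1.02) and Bhlhe41 (-1.87) lower. Luminal cells had 2 of 11 higher, Arntl (1.87) and Dbp (1.32), where 11.8% of genes were. Within the squamous clusters that both libraries shared, few clock genes were called higher. The counts were 0 of 12 tested in cluster 0 and 0 of 11 in cluster 6. They were 1 of 13 in cluster 7 and 1 of 10 in cluster 11. In each of these clusters 2 were called lower. Of all genes 7.11%, 3.39%, 2.91% and 13.2% were higher there, and 7.67%, 9.23%, 8.76% and 11.4% lower. The pooled excess was thus not seen within these clusters. The hour of collection is not given in the sources used here. Among 15 receptor chaperones and cofactors Nrip1, a corepressor of nuclear receptors, was higher in luminal (1.01), basal (1.48) and suprabasal cells (1.90). Hsp90aa1, which works with FKBP51, was lower in luminal (-0.75) and basal cells (-1.14), as was Hspa4 (-0.64 and -0.96). Of this list 2 of 15 tested were higher and 5 lower in luminal cells, 2 and 4 of 14 in basal, and 2 and 0 of 14 in suprabasal cells, and the counts higher stand against 11.8%, 17.1% and 20.3% of all genes. Of 9 immediate early and heat shock genes, which can be raised by dissociation of tissue, none was called higher in luminal, basal or suprabasal cells, Hspa1b (-0.74) and Junb (-1.30) were lower in luminal and Atf3 (-1.45) and Egr1 (-1.71) in suprabasal cells.

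By the annotation (GENCODE M21, GRCm38) Fkbp5 lies at chr17:28399094-28517527, Greb1 at chr12:16670615-16800886 and Padi1 at chr4:140812983-140845778, all on the minus strand and all overlapping other annotated genes. Tsc22d3 lies at chrX:140539528-140600659 and Zbtb16 at chr9:48654297-48836222, on the minus strand, and Sgk1 at chr10:21882184-21999903 and Per1 at chr11:69095217-69109960, on the plus strand. No other annotated gene overlapped these 4. Whether counting used the strand is not given in the sources used here, so reads of an overlapping gene on the opposite strand cannot be told apart from those of Fkbp5, Greb1 and Padi1.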

How the data were processed

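The authors deposited a matrix of UMI counts for each library, whole numbers with no normalization per the file headers. The lowest barcode held 500 UMIs. Cell Ranger 3.0.2 and mm10 are named in the submitters' processing notes, and other steps of the counting are not given in the sources used here. The filter on cells asked for 200 detected genes or more and a mitochondrial share of no more than 20%. Doublets called by Scrublet, at a rate set by the number of barcodes, were removed (181 control, 680 progesterone). Cells of both libraries were clustered together in scanpy 1.11.5 (2000 variable genes, 30 components, 15 neighbours, Leiden resolution 1), without mitochondrial, member and list genes. Clusters were named from markers of 17 classes. The thresholds of the naming, such as 500 CPM of Krt8 for luminal cells, were set after seeing the clusters, so differences from the study's own cell types may come from these rebuilt names.

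Levels (CPM) are the summed UMIs of a gene over all UMIs of the same class and library. Levels have exact Poisson intervals, ratios exact conditional binomial intervals and shares exact Clopper-Pearson intervals, at 95% and for counting error only. Log2 ratios had 0.5 counts added to both sums. Where a class had 0 counts of a gene in a library, the fold was computed as if it had 3. Ratios within clusters are Mantel-Haenszel rate ratios over clusters where both libraries had 50 cells or more. The call rule and this ratio were tested on simulated counts with known folds. Named genes were the 7 members, the receptors, the called genes of each list (beyond 6, the 3 highest and 3 lowest) and the 5 most alike in level to Fkbp5, Tsc22d3 and Greb1, by log2(CPM + 10) over genes with at least 200 UMIs. The members and lists were chosen with earlier results of these data known. Alternatives covered the cell filter, doublets, resolution, joint clustering, scaling, summing, low counts and thinning. The receptor list is given in part, and 1 receptor is not reported here. Thinning was repeated in 20 further draws after a single draw had been seen to decide which shares were apart.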

Additional observations from a re-analysis of the deposited data

How the results depend on the processing

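The count of 6 genes called higher in squamous cells was 6 or 7, and that of 1 higher and 1 lower in luminal cells stayed at 1, under the stricter filter, no doublet removal, Leiden resolution 2, separate clustering, another scaling and other low-count limits. With clusters 9 and 19 counted as luminal these became 3 higher and 0 lower, and the log2 ratio of Tsc22d3 in luminal cells 2.08. The median log2 ratio of all luminal genes was then 0.30, and the share of all genes called in that setting is not given here. In squamous cells the log2 ratio of Tsc22d3 was 1.05 with the mean of each cell's CPM and 0.56 within clusters, and that of Greb1 0.90 with the libraries clustered apart and 0.88 within clusters. The log2 ratio of Padi1 in squamous cells was -0.0798 within clusters, which averages clusters of opposite direction. Under the stricter filter the log2 ratios within clusters were -0.45 for Tsc22d3, -0.19 for Sgk1, 1.03 for Fkbp5 (2 control UMIs) and 1.56 for Greb1 (8 control UMIs), from 2 clusters in place of 4. The other causes were not tested. Leaving out mitochondrial, ribosomal protein and the 20 top genes moved the median log2 ratio of all genes to 0.30 in squamous and 0.18 in luminal cells. Shares of cells with a UMI moved in 16 of 20 cases without thinning and in 16 of 20 at 4000 UMIs. The medians of 20 further thinning draws, an alternative chosen after seeing the data, lay inside the counting intervals of the 10 luminal shares compared. The mean of each cell's CPM gives no count of called genes. Depth limits the values with few control UMIs, such as those of Fkbp5, Per1 and Greb1 in luminal cells. No paired analysis was possible because each group has 1 library.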
